A study of Mus musculus with 9 samples.

Results

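The 8 genes described here, Hmgcs1, Idi1, Fdps, Fdft1, Sqle, Lss, Cyp51 and Dhcr7, encode enzymes of cholesterol synthesis. They were taken by gene name from a mouse whole-genome array, on which they are read by 18 probes of 41174, and they stand for 8 of 27597 named genes. The set was chosen by results of these same arrays, and the measured values counted here as having chosen it are the differences of both re-isolated groups from satellite cells, which are therefore given as a description without a test. Cholesterol is built from acetyl units: Hmgcs1 condenses them to HMG-CoA, from which mevalonate is made, and Idi1 and Fdps make the isoprenoid chain. Fdft1 joins a pair of chains to squalene, Sqle turns squalene into its epoxide, and Lss closes the sterol rings. Cyp51 and Dhcr7 act on the ring system late in the pathway. When membranes run low on sterol, the transcription factor SREBP-2 (gene Srebf2) is carried out of the endoplasmic reticulum by Scap, is cut by the proteases of Mbtps1 and Mbtps2, and raises nearly the whole pathway, while the Insig proteins hold it back when sterol is plentiful.

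Each of 3 groups had 3 one-colour arrays. Cells of the iPax3 and iPax7 groups descended from mouse pluripotent stem cells, made into myogenic progenitors with inducible Pax3 or Pax7, were injected into muscle and were taken back from the tibialis anterior of NSG/NSGmdx4cv hosts aged 3 months as mononucleated cells. NSG mice lack lymphocytes, and the mdx4cv allele disrupts dystrophin. The remaining group held satellite cells, which sit under the basal lamina of the fibres and rebuild muscle after injury, sorted without any graft from the tibialis anterior of adult Pax7-ZsGreen reporter mice of the same age. Per the labels, 1500 cells came from 3 mice per line over 3 independent experiments, and their RNA was amplified before labelling. The labels do not say which array belongs to which experiment, nor how the cells were gated, so the spread between arrays may be partly technical. Strain and slide cannot be told apart from the contrast with satellite cells: all 6 re-isolated arrays lay on slides 1 and 2 and were scanned on the first scan day, and the satellite arrays lay on slides 3, 4 and 5 and were scanned on later days.

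The share of all probes well above background ran from 56.7% to 79.7% per array, and satellite replicate 1 had the highest share. Pax7, the defining satellite cell gene, was well above background on all 9 arrays, at levels of 2.89, 3.53 and -0.66 on satellite replicates 1 to 3 and from -3.90 to -0.53 on the 6 re-isolated arrays. All levels are log2 signals with that array's 75th percentile set to 0, and they compare arrays for a given probe, not a probe with another probe. The 6 markers of fibroblasts and fibro-adipogenic cells (Pdgfra, Dcn, Col1a1, Col1a2, Ly6a and Postn) were above background on every array; their summed level, on a linear scale relative to that percentile, was 301 to 565 in iPax3, 382 to 688 in iPax7 and 3.53 to 5.56 in satellite cells. The 7 satellite and myogenic markers summed to 37.9 to 49.7 in iPax3, 32.8 to 68.7 in iPax7 and 104 to 206 in satellite cells. Not every marker followed the sum: Itga7 overlapped satellite cells in both lines, Pax7 in iPax3 and Calcr in iPax7. Myf5 was above background on 1 iPax3 array, 0 iPax7 arrays and 2 satellite arrays. The summed level of 4 adipocyte markers was 14.2 to 30.4 in iPax3, 35.7 to 126 in iPax7 and 31.5 to 56.5 in satellite cells; Fabp4 made up most of that sum, and Adipoq, Plin1 and Lep were not higher in iPax7 throughout. The summed level of 5 endothelial markers was 1.66 to 4.20 in iPax3, 5.26 to 54.5 in iPax7 and 4.83 to 13 in satellite cells. Of these, Tek and Cldn5 were higher on every iPax7 array than on every iPax3 array, as were 4.46% of all genes tested. Pecam1, Cdh5 and Kdr overlapped between iPax7 and iPax3, and Pecam1 was lowest on iPax7 replicate 3, at -1.71. The part of these cell types in the results below was not tested. In such bulk samples, fewer cells of a type and less RNA per cell cannot be told apart.

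All 18 member probes are 60 bases long, and a probe reads only the stretch of transcript that it matches. The 6 sequences shown, from 5 of the genes whose probes are set side by side, show what a single probe reads, and they are given 5′ to 3′ in lower case with no part marked.
Hmgcs1, A_52_P388072: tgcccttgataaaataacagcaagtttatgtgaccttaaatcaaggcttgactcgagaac
Fdps, A_51_P379798: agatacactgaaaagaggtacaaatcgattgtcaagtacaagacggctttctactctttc
Fdft1, A_51_P485946: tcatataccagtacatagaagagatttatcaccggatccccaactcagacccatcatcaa
Lss, A_52_P168028: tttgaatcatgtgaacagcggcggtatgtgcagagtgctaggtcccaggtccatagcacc
Cyp51, A_51_P485791: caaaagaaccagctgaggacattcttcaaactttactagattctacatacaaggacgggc
Cyp51, A_52_P636752: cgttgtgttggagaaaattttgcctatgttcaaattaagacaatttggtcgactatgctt
In build mm8, as the array files give it, the first Cyp51 probe covers chr5:4098039-4098445, that of Fdft1 chr14:62101042-62105282 and that of Fdps chr3:89180817-89180957, all on the minus strand. Those 3 stretches are 407, 4241 and 141 bases long for a probe of 60 bases, so these probes cross at least one splice junction. The other Cyp51 probe shown lies at chr5:4089242-4089301 and the Lss probe at chr10:75994380-75994439 on the plus strand. The Hmgcs1 probe is at bases 117667 to 117726 of the unplaced chromosome 13 sequence of that build, on the minus strand. No exon or UTR annotation of mm8 was used here.

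**Figure D1:**
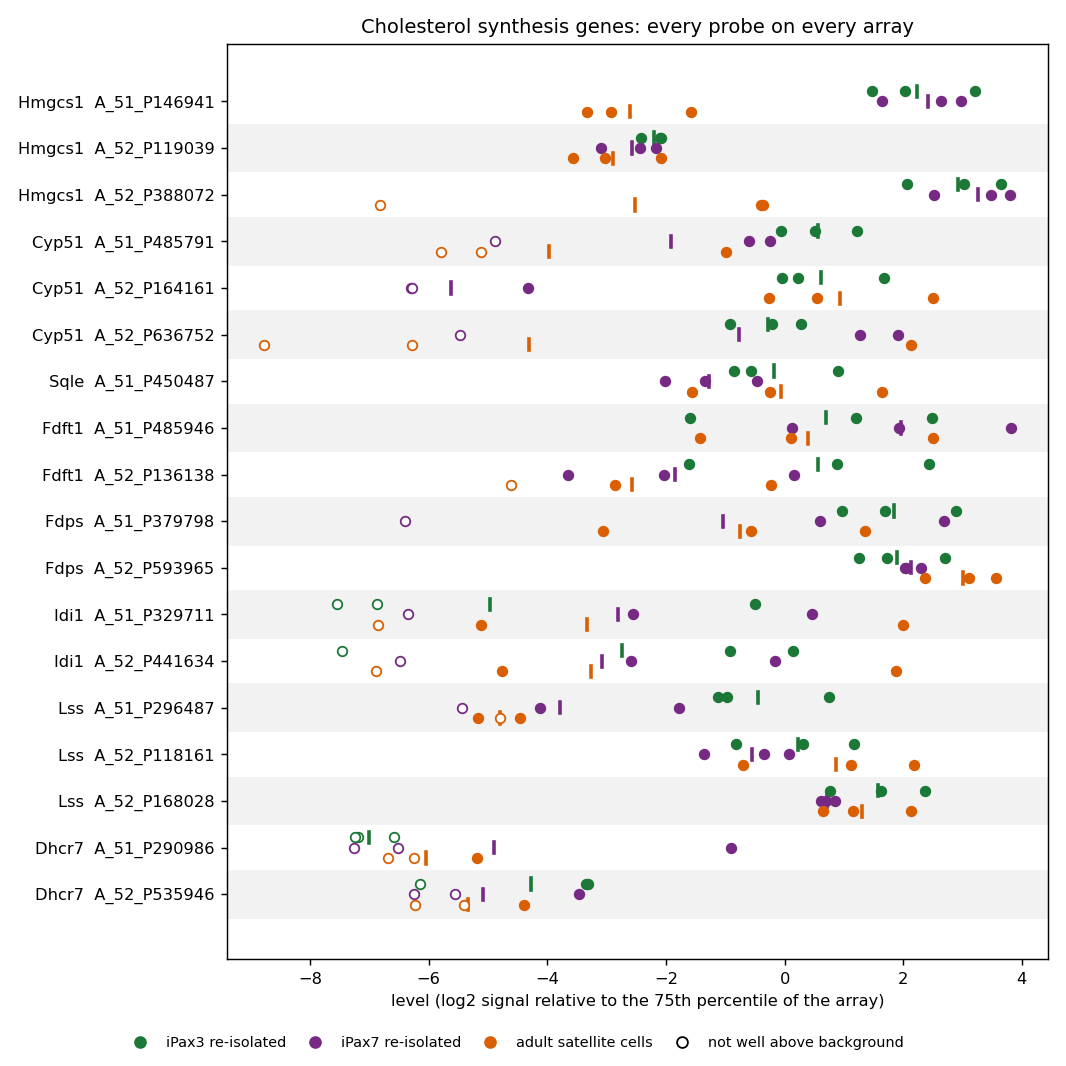
Level of each of the 18 probes on each of the 9 arrays, as log2 signal with the array's 75th percentile at 0; points are arrays, vertical ticks group means, and open points are not well above background. For Hmgcs1 probes A_51_P146941 and A_52_P388072 all 6 re-isolated arrays lie above all 3 satellite arrays, and for Idi1 each group spreads over more than 6 log2 units.

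Hmgcs1 had the clearest pattern of the 8 genes: on 2 of its 3 probes every re-isolated array was brighter than every satellite array, and the remaining probe showed little range. Probe A_51_P146941 read 2.02, 1.47 and 3.21 in iPax3 replicates 1 to 3, 2.64, 1.64 and 2.98 in iPax7 and -1.57, -3.32 and -2.92 in satellite cells, with all 9 arrays above background. Probe A_52_P388072 read 2.07, 3.03 and 3.65 in iPax3, 3.79, 2.52 and 3.48 in iPax7, and -0.36, -0.40 and -6.81 in satellite cells, the last of these not above background. Both probes thus placed the 2 re-isolated groups in the same range and the satellite cells below it. The differences on the first probe were 4.84 ± 0.84 for iPax3 and 5.03 ± 0.84 for iPax7 minus satellite cells (log2, SE of the fit, n = 3 per group), which are 28.7-fold and 32.6-fold. On A_52_P388072 they were 5.44 ± 1.60 and 5.79 ± 1.60; without satellite replicate 3, the array below background, they were 3.30 and 3.65.

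The third Hmgcs1 probe, A_52_P119039, did not share that pattern. It was designed on another cDNA record (AK078743) and lies at bases 121437 to 121496 of the same unplaced sequence. Its levels were -2.10, -2.08 and -2.43 in iPax3, -2.43, -2.17 and -3.09 in iPax7 and -3.57, -2.08 and -3.03 in satellite cells, all above background. Satellite replicate 2 lay inside the re-isolated range, and the differences of 0.69 ± 0.72 and 0.33 ± 0.72 were within their errors. Between the re-isolated groups the 3 Hmgcs1 probes differed by 0.19 ± 0.84, 0.35 ± 1.60 and -0.36 ± 0.72 (iPax7 minus iPax3, adjusted p = 1 for each in limma's moderated fit).

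Idi1, the isomerase that supplies the starter unit of the isoprenoid chain, varied within each group more than between groups. Probe A_51_P329711 read -6.87, -0.49 and -7.55 in iPax3, -6.35, 0.47 and -2.56 in iPax7, and -5.12, 2.0 and -6.85 in satellite cells. Probe A_52_P441634 read -7.45, 0.14 and -0.92 in iPax3, -6.49, -0.16 and -2.60 in iPax7, and -4.77, 1.88 and -6.89 in satellite cells. Replicate 2 was the brightest array of its group on both probes in all 3 groups. The groups overlapped, and no difference between groups reached its SE, which was 2.74 and 2.72 for the 2 probes. Idi1 rests on uncertain ground as well, because the array files place both probes on chromosome 2 of mm8 (53516550 to 53516609 and 53518541 to 53518600, minus strand), whereas RefSeq's promoter table for GRCm38.p6 has Idi1 on chromosome 13; a near-identical copy could take part in the signal.

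Fdps makes farnesyl diphosphate, from which both sterols and protein prenyl groups derive, and in iPax3 its 2 probes differed from satellite cells in opposite directions. The junction probe A_51_P379798 read 1.69, 0.97 and 2.89 in iPax3, -6.39, 0.59 and 2.70 in iPax7, and 1.36, -0.57 and -3.06 in satellite cells. The low value of iPax7 replicate 1 was not above background, and the groups overlapped, with differences from satellite cells of 2.61 ± 2.13 in iPax3 and -0.28 ± 2.13 in iPax7. Probe A_52_P593965, on cDNA record AK077979, read 1.25, 2.71 and 1.72 in iPax3, 2.03, 2.04 and 2.31 in iPax7 and 2.36, 3.10 and 3.57 in satellite cells. On that probe the 3 iPax7 arrays lay below the 3 satellite arrays, narrowly, by -0.88 ± 0.73, and iPax3 overlapped satellite cells with a difference of -1.11 ± 0.73.

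Fdft1, the squalene synthase, was above background on all 9 arrays with its junction probe A_51_P485946, which read -1.60, 1.20 and 2.48 in iPax3, 3.82, 0.13 and 1.92 in iPax7, and -1.42, 0.11 and 2.50 in satellite cells. The 3 groups covered much the same range, and the differences from satellite cells were 0.30 ± 1.44 and 1.56 ± 1.44. Its other probe, A_52_P136138, read 2.44, 0.89 and -1.61 in iPax3, -3.65, 0.16 and -2.04 in iPax7, and -0.23, -4.62 and -2.86 in satellite cells. There iPax3 was on average 3.14 ± 1.5 above satellite cells and iPax7 0.73 ± 1.5, with overlap in both cases. The order of arrays within iPax3 was opposite on the 2 probes.

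Sqle, the squalene epoxidase and an early rate-setting step of the sterol branch, has 1 probe, A_51_P450487, above background on all 9 arrays. Its levels were -0.56, -0.85 and 0.90 in iPax3, -2.02, -1.33 and -0.46 in iPax7 and -0.25, -1.56 and 1.64 in satellite cells. The groups overlapped throughout, with differences of -0.11 ± 1.0 in iPax3 and -1.21 ± 1.0 in iPax7 from satellite cells, and -1.10 ± 1.0 between the lines (adjusted p = 1).

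Lss, which folds the epoxide into lanosterol, overlapped between groups on 2 probes and separated iPax3 on the remaining one. Probe A_52_P168028, the one with the highest mean, read 1.62, 0.76 and 2.37 in iPax3, 0.84, 0.70 and 0.62 in iPax7, and 1.16, 2.12 and 0.64 in satellite cells, with differences of 0.27 ± 0.76 and -0.59 ± 0.76. Probe A_52_P118161, on cDNA record AK147680, read -0.82, 1.16 and 0.31 in iPax3, -0.35, 0.07 and -1.36 in iPax7, and 1.12, 2.18 and -0.70 in satellite cells. Its differences were -0.65 ± 0.96 and -1.41 ± 0.96, and groups overlapped on both probes. Probe A_51_P296487 read 0.75, -1.12 and -0.97 in iPax3, -5.43, -1.78 and -4.12 in iPax7, and -5.17, -4.79 and -4.45 in satellite cells. The iPax3 arrays were above all 6 others there, by 4.36 ± 1.03 over satellite cells, while iPax7 was 1.03 ± 1.03 above satellite cells and overlapped them. On that probe iPax7 replicate 1 and satellite replicate 2 were not above background. The difference between the lines was -3.33 ± 1.03 (iPax7 minus iPax3, adjusted p = 0.934) and -1.81 with a normexp background.

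Cyp51, the demethylase that removes a methyl group from lanosterol, had probes that pointed opposite ways for iPax7. Probe A_51_P485791, which crosses a junction, read -0.05, 0.52 and 1.21 in iPax3, -4.89, -0.59 and -0.24 in iPax7 and -1.0, -5.80 and -5.12 in satellite cells. Probe A_52_P636752 read -0.91, -0.21 and 0.27 in iPax3, -5.48, 1.27 and 1.92 in iPax7 and -8.77, -6.27 and 2.13 in satellite cells. On both, 2 of 3 satellite arrays and 1 of 3 iPax7 arrays were not above background, whereas all iPax3 arrays were. On the first, the differences from satellite cells were 4.53 ± 1.55 in iPax3 and 2.06 ± 1.55 in iPax7. On the second they were 4.02 ± 2.76 and 3.54 ± 2.76. Arrays of iPax7 overlapped satellite cells on both probes. Those of iPax3 overlapped on the second, where satellite replicate 3 was the brightest of the 9 arrays.

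The third Cyp51 probe, A_52_P164161, stood the other way round. It matches the transcript farther downstream, at base 3496 against 1210 and 1731 for the other two (chr5:4087477-4087536, minus strand, mm8). Its levels were -0.04, 0.23 and 1.67 in iPax3, -6.29, -4.32 and -6.28 in iPax7, and 0.55, 2.51 and -0.27 in satellite cells. Here iPax7 was the low group, with 1 of 3 arrays above background, and iPax3 and satellite cells shared a range. The difference was -6.56 ± 1.0 for iPax7 minus satellite cells and -0.31 ± 1.0 for iPax3 minus satellite cells. Between the lines it was -6.25 ± 1.0 with no overlap (adjusted p = 0.284 over all probes). Because 2 of 3 iPax7 arrays were not above background, the size depends on how dim signal is treated: the same difference was -3.38 with a normexp background and -4.66 in the deposited value table. Without any single array the iPax7 minus satellite difference on this probe stayed between -7.21 and -5.77.

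Dhcr7, the reductase of the last step to cholesterol, was at the edge of detection in all groups. Probe A_52_P535946 was above background on 4 arrays and read -3.31, -3.34 and -6.15 in iPax3, -3.47, -5.56 and -6.25 in iPax7 and -4.39, -6.22 and -5.40 in satellite cells. The groups overlapped, with differences of 1.07 ± 1.1 and 0.25 ± 1.1. The second probe, A_51_P290986, was above background on 2 arrays and did not pass the filter. It read -7.19, -6.58 and -7.24 in iPax3 with none above background, -0.91, -6.52 and -7.25 in iPax7, and -5.18, -6.25 and -6.69 in satellite cells. The groups overlapped there too, and the high mean of iPax7 rests on replicate 1 alone.

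Of the 17 probes that passed the filter, 12 were higher and 5 lower in iPax3 than in satellite cells by their means, with a median difference of 0.69 against -0.03 over all probes, of which 49.3% were higher. In 4 of them the groups did not overlap and iPax3 was higher (Hmgcs1 A_51_P146941 and A_52_P388072, Cyp51 A_51_P485791 and Lss A_51_P296487), and in 0 it was lower; over all 32982 probes tested the groups did not overlap in 18.5%, higher in 9.43% and lower in 9.11%. For iPax7 minus satellite cells 11 probes were higher and 6 lower, beside 48.5% higher over all probes, with a median of 0.33. Groups did not overlap in 2 higher probes, both of Hmgcs1, and 2 lower ones, Cyp51 A_52_P164161 and Fdps A_52_P593965, beside 15.9% of all probes (7.85% higher and 8.08% lower). Both contrasts share the satellite arrays.

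Taking for each gene the probe of highest mean, 5 members were higher and 3 lower in iPax3 than in satellite cells and 4 were higher and 4 lower in iPax7. The median differences were 0.29 and -0.20, against -0.19 and -0.15 over all 22714 genes, of which 45.3% and 45.9% were higher. The gene value of Cyp51 in iPax7 is the one of probe A_52_P164161, and its other 2 probes had the opposite sign; in the deposited value table another probe had the highest mean and the gene value was 2.17. The medians lay near 0 and their sign turned with the processing: that of iPax3 was -0.12 with a normexp background and 1.20 when all tested probes of each gene were averaged, and that of iPax7 was 0.09 in the deposited value table.

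Between the lines 5 member probes were higher and 12 lower in iPax7 than in iPax3, with a median of -0.76, beside 51.0% higher over all probes; by gene 3 of 8 were higher, beside 53.3% of all genes. Groups did not overlap in 3 lower probes, 2 of Cyp51 and 1 of Lss, and in 0 higher ones, beside 9.40% of all probes (4.24% higher and 5.15% lower). No member was called, as 0 of all genes were (0%; 931 genes, 4.10%, had an unadjusted p under 0.05), and the smallest adjusted p among the members was that of Cyp51 at 0.345 over genes. On slide 1, which held all iPax3 arrays and iPax7 replicate 1, the differences without replicate check were -6.91 for Cyp51 A_52_P164161, -5.45 for Cyp51 A_51_P485791 and -4.98 for Lss A_51_P296487. That single iPax7 array was not above background on any of the 3 probes, so these sizes are not well measured. The 2 iPax7 arrays on slide 2 stood -5.92, -0.98 and -2.51 from the iPax3 mean on the same probes. Hmgcs1 differed on slide 1 by 0.40 and 0.88 on its 2 brighter probes.

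Disagreement between probes of a gene was common on these arrays. Of 7109 genes with at least 2 tested probes, 47.3% had probes of opposite sign for iPax3 minus satellite cells, 49.3% for iPax7 minus satellite cells and 52.9% between the lines; of the 6 such members, 4 (Cyp51, Fdps, Idi1 and Lss), 2 (Cyp51 and Lss) and 4 (Hmgcs1, Fdft1, Fdps and Idi1) did. The distance between the highest and lowest probe difference had a median of 4.23 over the 6 members and 1.84 over all such genes for iPax3 minus satellite cells, and 1.64 and 1.87 for iPax7. Arrays of a group also lay far apart: the range over 3 arrays had a median over the 17 probes of 1.76 in iPax3, 2.77 in iPax7 and 3.21 in satellite cells, beside 1.91, 2.22 and 2.61 over all probes. Ranges above 4 log2 units occurred in 4, 5 and 7 member probes of the 3 groups, beside 20.2%, 25.5% and 29.6% of all probes.

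**Figure D2:**
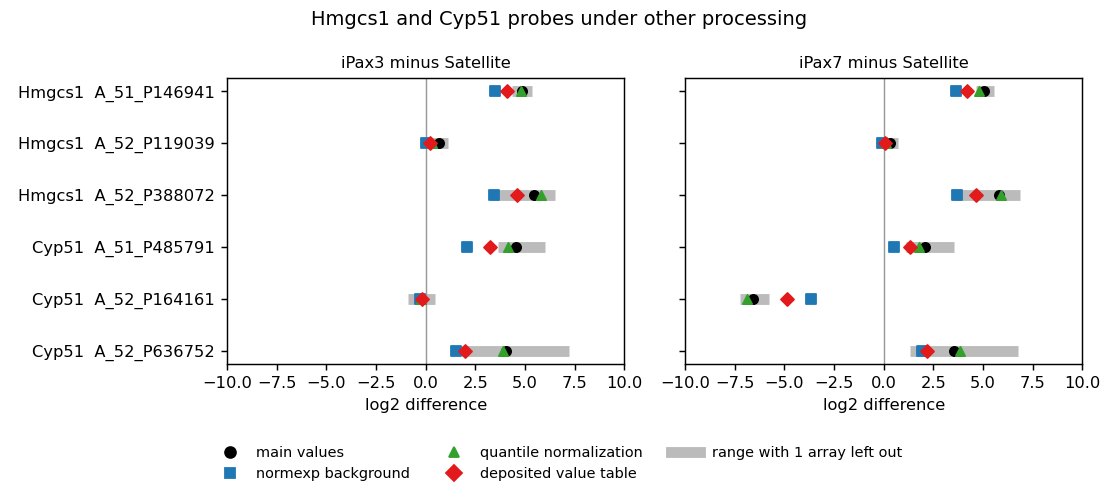
Difference from satellite cells in log2 units for the 3 probes of Hmgcs1 and the 3 of Cyp51 under 4 ways of making the values, with grey bars for the range when each of the 6 arrays compared is left out. The Hmgcs1 probes A_51_P146941 and A_52_P388072 stay above 3 throughout, and Cyp51 A_52_P164161 stays below -3 in iPax7.

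With the probe kept the same, the differences on the 2 brighter Hmgcs1 probes held their sign in every way of processing tried, while that on A_52_P119039 went from 0.33 to -0.10 in iPax7 with a normexp background. On A_51_P146941 they were 3.47 for iPax3 and 3.66 for iPax7 with a normexp background, 4.78 and 4.78 with quantile normalization and 4.12 and 4.18 in the deposited value table. On A_52_P388072 the same settings gave 3.42 and 3.70, 5.81 and 5.90, and 4.61 and 4.63. Cyp51 A_52_P164161 was -3.67, -6.86 and -4.87 in iPax7 minus satellite cells, while the same settings gave 0.54, 1.76 and 1.31 for A_51_P485791 and 1.95, 3.86 and 2.17 for A_52_P636752. The opposition of the Cyp51 probes was thus present in all 4 sets of values.

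The other genes of the pathway, from a list of 12 enzymes, were all tested and 0 passed the test in any of the 3 comparisons (limma; 0 had an unadjusted p under 0.05). Over all genes 0.431% were called at an adjusted p of 0.05 in iPax3 and 0.533% in iPax7 minus satellite cells, and 12.4% had an unadjusted p under 0.05 in each. Without satellite replicate 1 the counts of called genes were 450 and 493 in place of 98 and 121. The median differences of the 12 enzymes were -0.18 for iPax3 and 0.15 for iPax7 minus satellite cells. Acat2, the thiolase just before Hmgcs1, read 2.40, 2.14 and 2.10 in iPax3, above the satellite values of 1.92, -1.47 and -1.62, with a difference of 2.61 ± 1.25 (adjusted p = 0.428). Mvk, which phosphorylates mevalonate, and Mvd, which decarboxylates its diphosphate, were -1.85 ± 1.26 and -1.26 ± 0.93 in iPax3 minus satellite cells (adjusted p = 0.555 and 0.582).

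**Figure D3:**
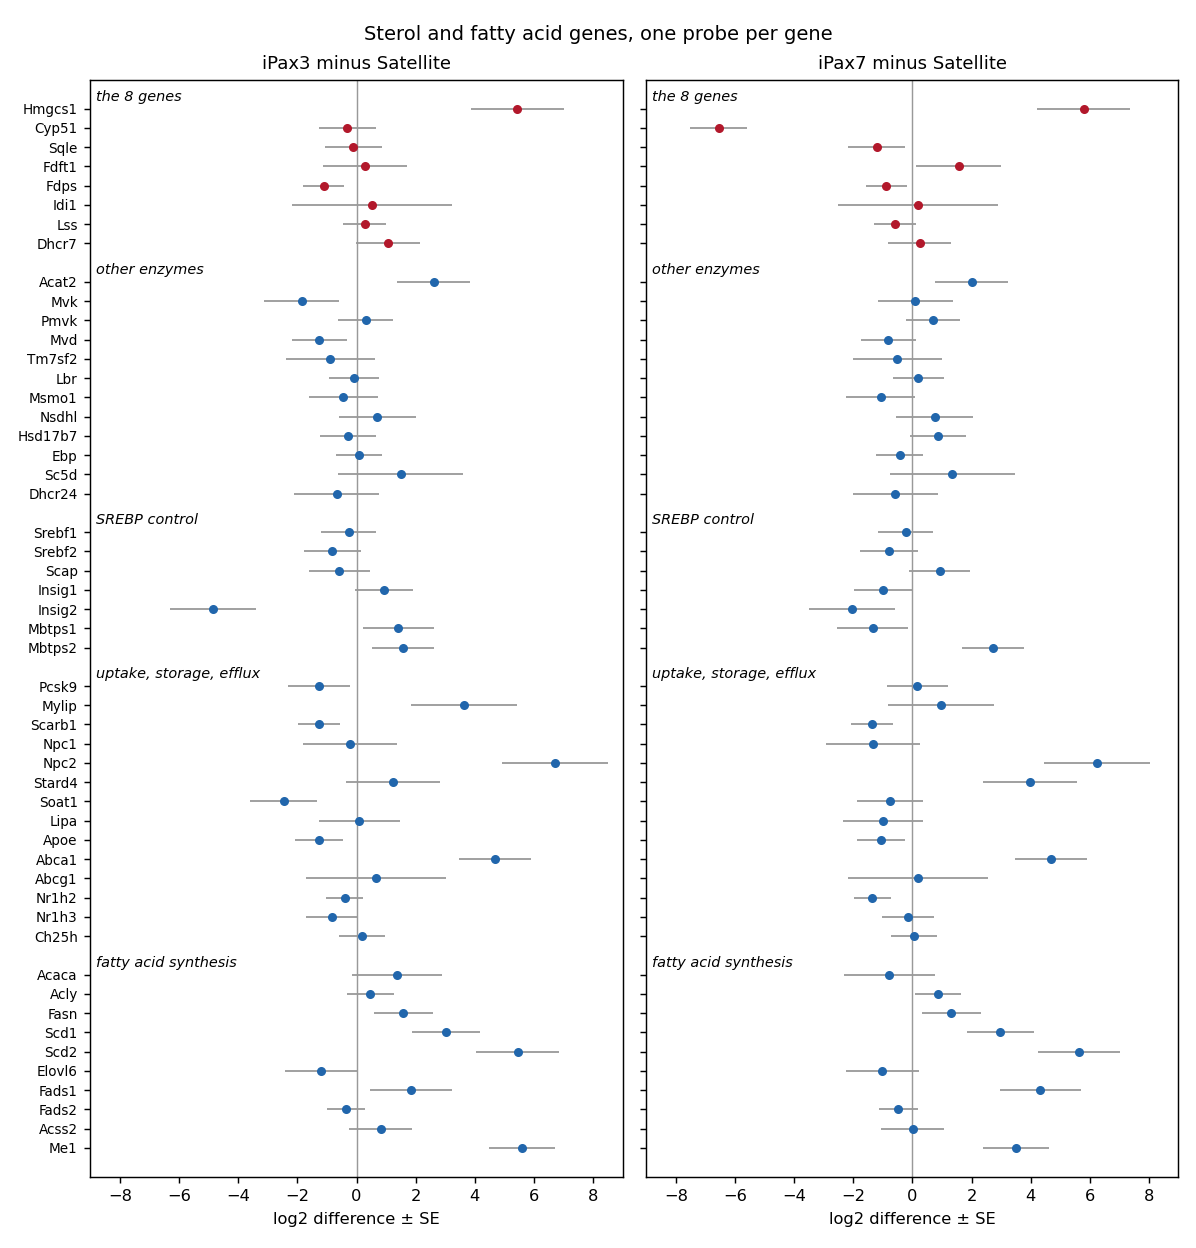
Difference from satellite cells in log2 units with the SE of the fit for the 8 genes (red) and for the tested genes of 4 further lists (blue), each by its probe of highest mean, 3 arrays per group. Hmgcs1 stands above 5 in both panels while the 12 other enzymes lie between -1.85 and 2.61, and Npc2, Abca1, Scd2 and Me1 lie to the right of the remaining blue points in the iPax3 panel.

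Of the 7 genes that control SREBP, 0 passed the test in either contrast. Srebf2 itself read 1.29, 1.06 and 0.59 in iPax3, 0.91, 1.83 and 0.28 in iPax7 and 1.03, 0.41 and 3.94 in satellite cells, with overlap on every side. Insig2 read -7.13, -1.30 and -1.17 in iPax3, the first of these not above background, -0.13, -0.31 and -0.83 in iPax7 and 1.29, 1.12 and 2.51 in satellite cells. All 6 re-isolated arrays were below the satellite arrays, with differences of -4.84 ± 1.46 in iPax3 (adjusted p = 0.232) and -2.06 ± 1.46 in iPax7 (adjusted p = 0.600), the first made larger by iPax3 replicate 1; in iPax3 and iPax7 respectively, 19.0% and 16.5% of all genes had no overlap with satellite cells. Insig1, also an SREBP target, overlapped satellite cells in both lines. The protease gene Mbtps2 differed without overlap by 1.57 ± 1.04 in iPax3 and 2.72 ± 1.04 in iPax7 (limma adjusted p = 0.547 and 0.343). It was dim in satellite cells, above background on 2 of 3 arrays, so these sizes are open to the treatment of dim signal. Mbtps1 differed by 1.41 ± 1.20 in iPax3 and -1.34 ± 1.20 in iPax7 (limma adjusted p = 0.631 and 0.686).

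Genes of sterol uptake, transport and efflux gave 14 tested of 15, with 0 past the test. In each contrast with satellite cells 7 were higher and 7 lower, with medians of -0.06 in iPax3 and -0.04 in iPax7. Groups did not overlap in 2 higher and 3 lower genes for iPax3, and in 2 higher and 2 lower for iPax7. Over all genes that share was 19.0% and 16.5%. Among the lower genes, Nr1h2 differed without overlap by -0.41 ± 0.61 in iPax3 and -1.35 ± 0.61 in iPax7 (limma adjusted p = 0.798 and 0.413). Npc2, the lysosomal cholesterol carrier, differed by 6.72 ± 1.79 and 6.25 ± 1.79 (adjusted p = 0.176 and 0.208), and the efflux pump gene Abca1 by 4.68 ± 1.23 and 4.69 ± 1.23 (adjusted p = 0.169 and 0.174). On the satellite arrays Npc2 was above background on 2 of 3 and Abca1 on 1 of 3, so these sizes are open to the treatment of dim signal. The sterol carrier gene Stard4 differed by 3.99 ± 1.59 in iPax7 (adjusted p = 0.365) and overlapped satellite cells.

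In the fatty acid branch, driven mostly by the related factor SREBP-1, 0 of 10 genes passed the test, and the medians of 1.48 and 1.08 were above those over all genes. In iPax3 8 genes were higher and 2 lower, and in iPax7 7 were higher and 3 lower. Over all genes 45.3% and 45.9% were higher. Fads1, above background on all 9 arrays, differed by 1.86 ± 1.39 in iPax3 and 4.33 ± 1.39 in iPax7 (limma adjusted p = 0.587 and 0.260). The desaturase Scd2 differed by 5.45 ± 1.40 and 5.63 ± 1.40 (adjusted p = 0.159 and 0.154), with 2 of 3 satellite arrays above background. Malic enzyme Me1, which supplies NADPH, was not above background on any satellite array by its probe. It differed from satellite cells by 5.60 ± 1.11 in iPax3 (limma adjusted p = 0.0797) and 3.51 ± 1.11 in iPax7 (adjusted p = 0.254). In iPax7 it was above background on 1 of 3 arrays. Both sizes are set against signal not above background and are open to the treatment of dim signal.

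The mean of the standardised levels of the 8 genes ran, over the 9 arrays, from -0.32 on iPax7 replicate 2 to 0.51 on iPax3 replicate 3. The genes most like that mean were sought among 13328 candidates above background on all 9 arrays. The highest were Rnf157 (Pearson r = 0.93), Fbxo41 (0.92), Nudt17 (0.92), F2rl3 (0.92) and Abcc2 (0.91), all over 9 arrays, where genes share array and signal depth. As the highest of 13328 correlations they were not tested, and they do not show that these genes vary with the pathway. Of the 9 other enzymes among those candidates the most similar was Ebp, at r = 0.56 and rank 449. As a description, the count of member probes above background ran from 11 of 18 on iPax7 replicate 1 to 17 on iPax3 replicate 2 and satellite replicate 1, and followed the share of all probes on those arrays of 56.7%, 77.3% and 79.7%.

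The promoter of Hmgcs1 is shown because it is the gene whose probes set the re-isolated cells apart. RefSeq's table (GRCm38.p6) held windows for 5 of the 8 genes, Hmgcs1, Idi1, Lss, Cyp51 and Dhcr7. The 250 bases before the start of Hmgcs1, chr13:119690101-119690350 on the plus strand, are given 5′ to 3′ with the match to a sterol regulatory element in capitals.
Hmgcs1 upstream: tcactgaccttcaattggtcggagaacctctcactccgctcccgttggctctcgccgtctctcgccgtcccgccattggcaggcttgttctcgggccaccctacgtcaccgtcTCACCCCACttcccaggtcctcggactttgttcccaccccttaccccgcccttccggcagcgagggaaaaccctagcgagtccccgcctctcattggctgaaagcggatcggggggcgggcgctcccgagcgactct
The element was searched as TCACNCCAC on both strands, and its first base lies 137 bases before the start. Among the members 1 of 5 held it and among the other enzymes 0 of 11, beside 1.05% of all 32851 windows, or 1.22% of genes. The CCAAT box, searched as CCAAT on both strands, does not overlap that match; it was found in 5 of 5 members, in 10 of 11 other enzymes and in 33.85% of all windows, or 37.49% of genes. A match describes letters in the window and does not show binding. Variants of the sterol element were not searched, so a window without a match is not shown to lack one.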

How the data were processed

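RNA was measured on 9 one-colour Agilent arrays, grouped by sample title. The intensity values were made with Feature Extraction 10.5.1.1, which subtracts background before writing the processed signal, per the file headers. The deposited value table holds log2 values of 30137 probes; limma is named by the submitters' processing notes, and the scaling steps are not given in the sources used here, so it served as an alternative (column medians 7.63 to 7.71; correlation with the scanner values 0.968 to 0.993). All 9 of its columns were used.

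The processed signal was put on the log2 scale and each array's 75th percentile over non-control spots was subtracted. Spots flagged as outliers were left out. A probe counted as well above background at the headers' limit of 13 background standard deviations and was kept with 3 or more such arrays of 9; 32982 probes and 22714 genes remained. The probe of highest mean stood for its gene. A single limma 3.58.1 fit (R 4.3.3) had a mean per group and no replicate block, with Benjamini-Hochberg adjustment over all genes, or over all probes where a probe is named. It was tested on simulated data. The number of arrays limits the precision. From each list the genes named are those past the test and at most 4 with the smallest p; Srebf2 was added for its role, after its values were seen.

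Same-numbered arrays did not deviate together (correlations -0.13 to 0.06), so numbers were not taken as pairs. The members, lists, markers and motifs were chosen with earlier results of these data known. Some genes of the lists are not reported here.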

Additional observations from a re-analysis of the deposited data

How the results depend on the processing

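The median of the 8 genes moved by less than the spread between arrays but lay near 0 and changed sign under some alternatives. In iPax3 it went from 0.29 to -0.12 with a normexp background, and in iPax7 from -0.20 to 0.09 in the deposited table. Between the lines it went from -0.58 to 0.19 with probes above background on all 9 arrays, where 5 of 8 genes had values. Leaving out 1 array gave -0.48 to 0.89, -0.71 to 0.62 and -0.72 to 0.02 in the same order. Again in that order, the sign turned without iPax3 replicate 3 or satellite replicate 1, without satellite replicate 1 or 2, and without iPax3 replicate 2. The count of 0 other pathway enzymes past the test stayed at 0 in all 3 comparisons under every alternative. Counts of called genes moved more, from 98 (iPax3 minus satellite cells), 121 (iPax7 minus satellite cells) and 0 (iPax7 minus iPax3). The deposited value table gave 186 and 196 in the contrasts with satellite cells. Slide as a random block gave 14, 43 and 1, scan day as a random block 27 and 36 in the first 2, and the replicate block 37 and 55, although the numbers do not pair the arrays. Quantile normalization and the mean of a gene's probes each called 1 gene between the lines. Asking for signal above background on all 9 arrays gave 76 for iPax7 minus satellite cells, and left Cyp51, Idi1 and Dhcr7 without a value. Leaving out 1 array gave 15 to 450 for iPax3, 31 to 493 for iPax7 minus satellite cells and 0 between the lines; the highest counts came without satellite replicate 1, the lowest without iPax3 replicate 3 and iPax7 replicate 1. The cause was not tested. Hmgcs1 was above satellite cells in all of these settings, by 3.30 to 6.52 in iPax3 and 3.65 to 6.87 in iPax7. The gene value of Cyp51 for iPax7 turned positive (2.17 in the deposited table, and without any 1 satellite array) because another of its probes then had the highest mean. The probe-by-probe values under other settings were added after seeing the data. Members near background, Idi1 and Dhcr7 above all, are limited by signal.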
